A study of Mus musculus with 9 samples.

Results

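The genes described here are 8 mouse genes that set vessel tone or build caveolae in endothelial cells: Nos3, Edn1, Ece1, Ednra, Ace, Ptgis, Cav1 and Cav2. They were taken by name, 8 of 21896 protein-coding genes. Chromatin accessibility was measured by ATAC-seq, which uses a transposase to insert sequencing adapters wherever DNA can be reached. Endothelial cells were purified from the lungs of mice by fluorescence-activated sorting. Infant, young adult and mature adult mice gave 3 libraries each. No days or weeks are attached to these age classes, and the labels name no strain, sex, genotype, treatment or sorting marker, nor whether each library came from a separate animal. The p-values therefore measure the spread between these libraries, which may be technical.

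Each library was deposited as a list of peaks, that is, the intervals the authors' peak calling returned, each with a chromosome, a start and an end and no height. Several measures follow from such a list: where a peak lies, how many peaks a gene holds, and how many base pairs they cover. A peak whose centre fell within a gene body was given to that gene, and any other peak to the closest gene end up to 100 kb away. Positions are in mm10, the same assembly as GRCm38.p6. A place with no peak is one where the caller reported none and is not shown to be closed. The lists held between 59793 and 94646 distinct peaks, most in the infant libraries, and read depth is unknown. Young adult 3 and mature adult 1 stood apart from the other adult lists, with 4901 and 4536 regions of their own, where the remaining 4 adult lists had 1211 to 2003. All 9 endothelial marker genes (among them Pecam1, Cdh5 and Erg) held a peak in every library.

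Endothelial cells set the tone of the underlying smooth muscle through short-lived signals. Nitric oxide, made by endothelial nitric oxide synthase (Nos3), and prostacyclin, made by prostacyclin synthase (Ptgis), relax it. Endothelin-1 (Edn1), cut to its active form by endothelin-converting enzyme (Ece1), contracts it through the receptor Ednra, which is known mainly from smooth muscle. Angiotensin-converting enzyme (Ace) makes angiotensin II and degrades bradykinin, and the lung capillary bed is a well-known site of it. Caveolae are flask-shaped pits of the plasma membrane that are abundant in lung endothelium. Caveolin-1 (Cav1) is needed to form them and binds and holds back endothelial nitric oxide synthase, and caveolin-2 (Cav2) assembles with it.

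Across the 8 genes together the number of peaks stayed close to the infant number while the lists as a whole shrank. Together the genes had 98, 96 and 97 peaks in infant lists, and the young adult libraries had 100, 96 and 90 and the mature adult libraries 80, 100 and 97. The means were 97.0 ± 1.00, 95.3 ± 5.03 and 92.3 ± 10.8 (SD, n = 3 each), so that the adult ages had 98.3% and 95.2% of the infant number. All peaks of the lists fell to 74.5% and 68.4% of the infant number over the same ages. Covered length at the 8 genes was 52.2 ± 3.17 kb, 45.6 ± 3.52 kb and 44.2 ± 4.71 kb (SD, n = 3 each), or 87.4% and 84.7% of the infant length, against 70.8% and 64.7% for the lists as a whole.

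**Figure D1:**
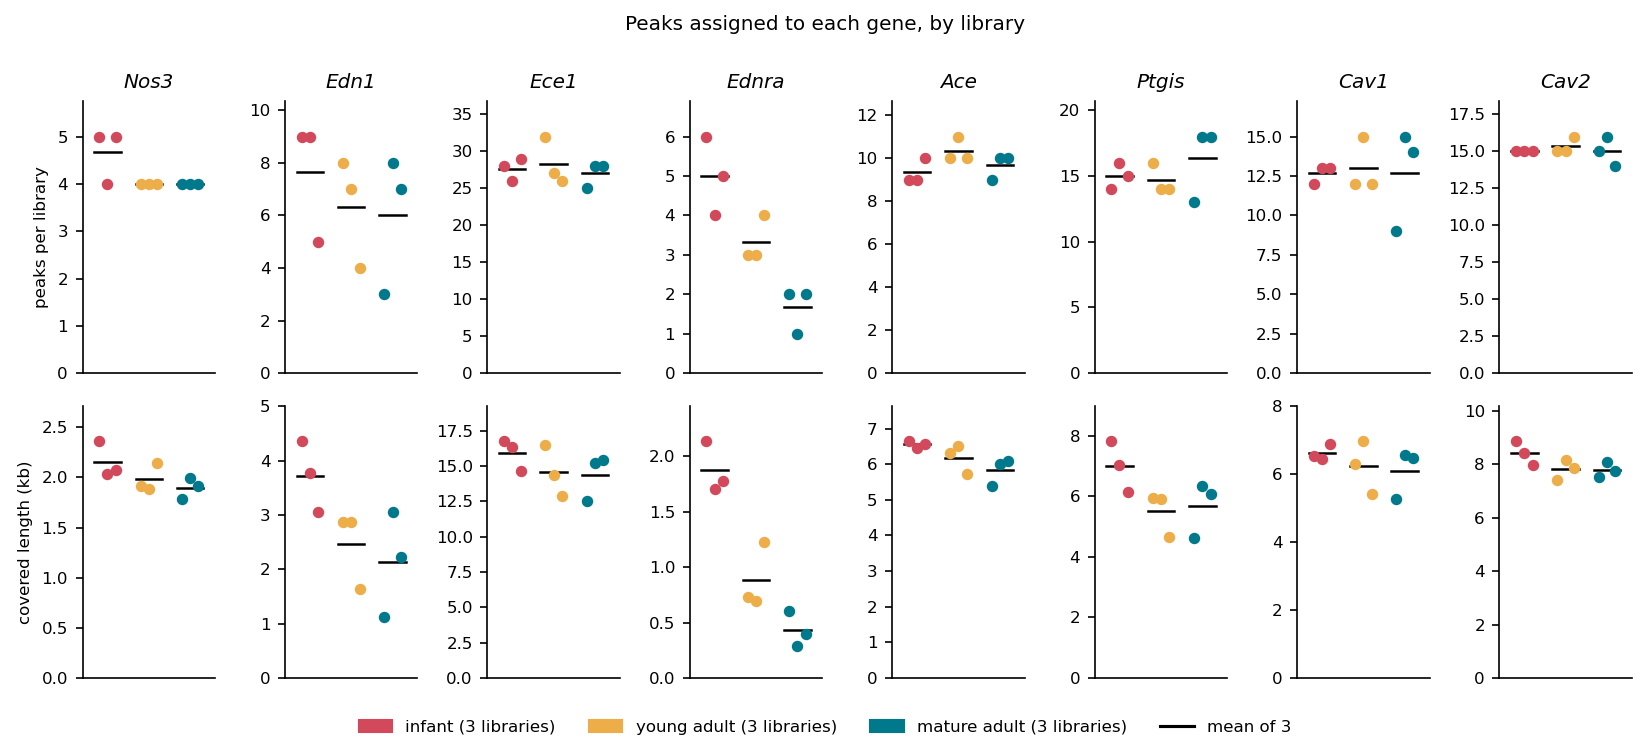
Peaks assigned to each of the 8 genes (upper row, number per library) and the length they cover (lower row, kb), with 1 point per library, coloured by age, and a bar at the mean of 3. Ednra has 4 to 6 peaks in the infant libraries and 1 or 2 in the mature adult libraries, while Nos3 and Ace keep nearly the same number in all 9.

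Because the lists differ in length, each gene was fitted on 2 scales with limma: as listed, and scaled to the total of its library. A gene was called changed only where the adjusted p was under 0.05 in the same direction on both scales. All 8 genes passed the filter of at least 1 peak on average per library. In mature adult against infant libraries, 1 of the 8 was called lower in peak number, where 13.8% of all 14448 genes tested were, and 1 of the 8 in covered length, where 19.0% were; in both cases it was Ednra. None of the 8 was called higher in number or length, against 1.44% and 1.21% of all genes. None reached an unadjusted p under 0.05 upward on both scales either. In young adult against infant libraries none of the 8 was called in number or in length, against 10.4% and 13.4% of all genes, and the count at an unadjusted p under 0.05 on both scales was 0 for each. In mature against young adult libraries none was called, against 0.741% and 0.540% of all genes, and 1 gene, Ednra, had an unadjusted p under 0.05 on both scales for each measure.

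On the scaled values alone, 5 of the 8 genes were higher in number in mature adult than in infant libraries (Nos3, Ece1, Ace, Ptgis and Cav2) and 6 in covered length (those 5 and Cav1). Over all genes 30.0% and 34.1% were. On the values as listed none of them had an adjusted p under 0.05 in either direction. The median log2 change of the 8 genes in number was 0.50 after scaling and -0.03 as listed, and that of all genes tested was 0.14 and -0.31. In covered length the medians were 0.43 and -0.17 for the 8 genes, beside 0.14 and -0.44 for all genes.

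The mean width of a gene's peaks was described without a test. Over all peaks of a library it was between 533 and 564 bp in the infant, 487 and 541 bp in the young adult and 495 and 530 bp in the mature adult libraries. Peaks at Ednra averaged 379 ± 41.2, 261 ± 40.1 and 262.5 ± 55.6 bp from infant to mature adult, and those at Edn1 505 ± 97.8, 393 ± 30.3 and 357 ± 34.2 bp (SD, n = 3 each). Peaks at Ace were the widest, at 705 ± 42.0, 598 ± 29.5 and 603 ± 4.38 bp, and those at Nos3 kept their width, at 465 ± 47.4, 495.0 ± 35.7 and 474 ± 27.2 bp.

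Position gives a finer view. The peaks of all libraries merged into 126907 regions, of which 129 belonged to the 8 genes. Of these, 60 (46.5%) held a peak in all 9 libraries, against 32.4% of all regions. In all 3 infant libraries and no mature adult library stood 8 regions (6.20%, against 14.4% of all regions), 3 of them at Ednra, 2 at Ece1 and 1 each at Ptgis, Cav1 and Cav2. In all 3 mature adult libraries and no infant library stood another 8 (6.20%, against 1.26%), 3 at Cav1, 2 at Ece1, 2 at Ptgis and 1 at Cav2. When peaks up to 200 bp apart were merged, the latter count was 6 of 119, with 1 each left at Ece1 and Ptgis.

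Each region found in at least 3 libraries was then fitted by its covered base pairs as listed, which left 106 of the 129. In mature adult against infant libraries 12 were higher and 19 lower (limma, adjusted p under 0.05 over all 83813 regions tested), where 3.81% and 38.8% of all regions were. For 13 of these 31 (5 at Ece1, 3 at Ednra, 2 each at Ptgis and Cav1 and 1 at Cav2) fewer than 3 libraries outside the age with the higher value held a peak. Such regions met the filter only with the libraries of that age, so their p-values are given as a description, and the counts without them were 8 higher and 10 lower. The share of all regions under this exclusion was not computed. Among the 8 higher are still 4 regions found in all 6 adult and no infant libraries (2 at Cav1, 1 each at Cav2 and Ptgis). These met the filter through adult libraries alone, so their p-values are a description too. The median region of the whole series lost 0.40 on the log2 scale. After each library was centred on its regions found everywhere, the split was 28 higher and 12 lower, where 12.7% and 30.1% of all regions were. In young adult against infant libraries 6 were higher and 13 lower (3.18% and 27.5% of all regions), 7 of the 19 having met the filter in that way. The same 4 regions with no infant peak are among the 6 higher. After centring 15 were higher and 8 lower, where 5850 and 19023 of all 83813 regions were. In mature against young adult libraries 3 were higher and none lower (0.276% and 1.28% of all regions), 1 of the 3 having met the filter in that way, with 5 and 2 at an unadjusted p under 0.05. Log2 changes of regions are of covered bp + 150, so where an age has no peak the size of the change depends on the 150 bp added.

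**Figure D2:**
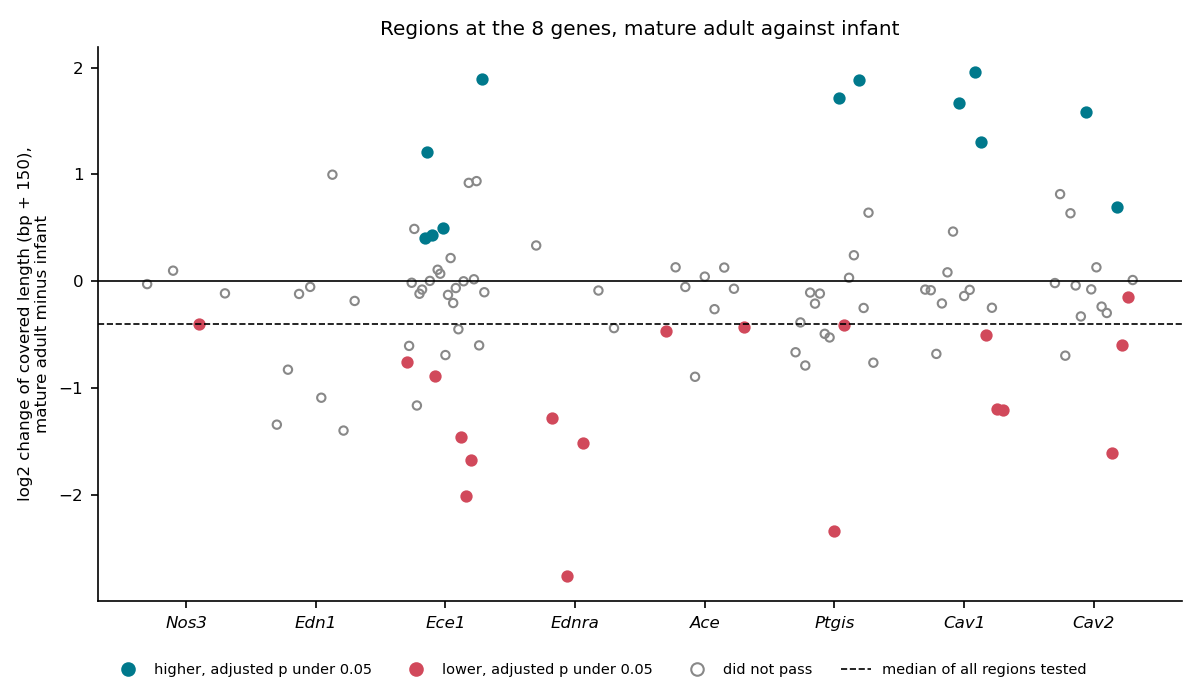
Log2 change of covered length (bp + 150) in mature adult against infant libraries for the 106 regions tested at the 8 genes, in chromosome order within each gene. Filled points passed an adjusted p of 0.05, 12 above and 19 below 0, and the dashed line is the median of all 83813 regions tested, -0.40. Edn1 has no filled point and Ednra has 3, all below 0.

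Nos3, the nitric oxide synthase of endothelial cells, kept 4 or 5 peaks in every library. It lies on chr5:24364816-24384474 and held 5, 4 and 5 peaks in infant, 4, 4 and 4 in young adult and 4, 4 and 4 in mature adult libraries. The covered length was 2359, 2033 and 2071 bp, then 1913, 1883 and 2144 bp, then 1781, 1997 and 1910 bp, and the ages overlapped except that every mature adult value lay below every infant value. The log2 change from infant to mature adult was -0.17 as listed (limma adjusted p = 0.122) and 0.42 after scaling (adjusted p = 0.00663). Of its 5 regions, 4 held a peak in all 9 libraries.

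Both ends of Nos3 lay under a peak in all 9 libraries. The peak over the lower end was 541, 525 and 506 bp wide in infant, 547, 553 and 725 bp in young adult and 447, 711 and 579 bp in mature adult libraries, and the ages overlapped (exact permutation test of F over all 280 splits, p = 0.554, adjusted p = 0.554 over 6 genes). A region inside the gene, chr5:24365513-24365874, covered 329, 341 and 300 bp in infant, 241, 255 and 241 bp in young adult and 220, 182 and 221 bp in mature adult libraries. It was narrower in mature adult than in infant libraries by -0.41 ± 0.11 (log2 change ± SE, limma adjusted p = 0.0200), about the loss of the median region of the series, and did not pass after centring (adjusted p = 0.338), with the replicate number as a block (adjusted p = 0.0569) or without infant 1 or infant 2 (adjusted p = 0.0656 and 0.0766).

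Edn1, the gene of the endothelin-1 precursor, lies on chr13:42301476-42307990, and no region at it passed in any comparison. Its peak number was 9, 9 and 5 in infant, 8, 7 and 4 in young adult and 3, 8 and 7 in mature adult libraries, so that the ages overlapped and the spread within an age was as wide as any difference between ages. Its peaks covered 4358, 3768 and 3055 bp, then 2864, 2876 and 1641 bp, then 1118, 3051 and 2228 bp, and every adult value lay below every infant value, the closest pair by a few bp. Its log2 change from infant to mature adult was -0.85 as listed (limma adjusted p = 0.0647) and -0.26 after scaling (adjusted p = 0.465). Without mature adult 1 the scaled change was 0.06 (adjusted p = 0.821).

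The start of Edn1 held a peak in every library, as did 35.0% of the 32851 starts in the reference table. Its width was 889, 722 and 884 bp in infant, 824, 655 and 718 bp in young adult and 737, 813 and 829 bp in mature adult libraries, with no separation of the ages (exact permutation test, p = 0.336, adjusted p = 0.403). Its promoter is shown as an example of a start that stayed under a peak at every age, at chr13:42301226-42301525 on the plus strand (RefSeq, GRCm38.p6). Capitals mark any match, on either strand, to 8 short patterns of known classes of factors. Of all 32851 windows, 31.5% held the pattern CCACCC of KLF factors, which respond to blood flow. The pattern CGGAAG of the ETS family, to which many endothelial regulators belong, was in 16.9%. AP-1 was searched as TGANTCA and found in 7.81% of windows. The GATA pattern AGATAA was in 11.2% and the hypoxia element TACGTG in 3.23%. The forkhead pattern TGTTTAC was in 3.65% and the TATA box TATAAA in 13.6%. The SP pattern GGGCGG, common in promoters rich in G and C, was in 35.7%.
Edn1: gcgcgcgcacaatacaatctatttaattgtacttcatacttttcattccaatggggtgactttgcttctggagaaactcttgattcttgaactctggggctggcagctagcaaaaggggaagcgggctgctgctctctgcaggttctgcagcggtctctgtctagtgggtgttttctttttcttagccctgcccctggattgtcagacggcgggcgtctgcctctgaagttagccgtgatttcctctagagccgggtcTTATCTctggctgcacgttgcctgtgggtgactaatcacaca
The window holds the GATA pattern on the minus strand 8 bases after the start. A match is letters in a window and not a measured site.

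Outside the start, the longer-range peaks of Edn1 were uneven. A region 56.8 kb upstream, chr13:42244208-42245094, covered 822, 854 and 758 bp in infant, 274, 684 and 0 bp in young adult and 166, 282 and 246 bp in mature adult libraries. Every adult value lay below every infant value, and the change did not pass the test (-1.35 ± 0.54 for mature adult against infant, limma adjusted p = 0.0816). This region was chosen after its values were seen. A region 0.978 kb past the gene's end, chr13:42308701-42309235, had no peak in infant, 150, 163 and 220 bp in young adult and 0, 438 and 154 bp in mature adult libraries, and did not pass either (1.00 ± 0.43, adjusted p = 0.0985).

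Ednra, the receptor through which endothelin-1 contracts smooth muscle, was the 1 gene of the 8 called lower. It lies on the minus strand at chr8:77663029-77724452. It held 6, 4 and 5 peaks in infant, 3, 3 and 4 in young adult and 2, 1 and 2 in mature adult libraries. Covered base pairs were 2136, 1708 and 1777 bp, then 732, 694 and 1225 bp, then 605, 286 and 398 bp. In length each age lay apart from the next, and in number the mature adult libraries lay below all others. From infant to mature adult the peak number changed by -1.37 as listed (limma adjusted p = 0.00788) and -0.90 after scaling (adjusted p = 0.0220), and the covered length by -1.83 (adjusted p = 0.000623) and -1.30 (adjusted p = 0.00564). Against the infant libraries the young adult covered length was lower as listed (-1.0, adjusted p = 0.0140) and not after scaling (-0.55, adjusted p = 0.155).

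The call in number was lost without infant 1 or infant 3, where the scaled adjusted p was 0.0754 and 0.0607. Among an equal number of the widest peaks from every list, 59793, neither measure was called: the number changed by 0.25 (adjusted p = 0.707) and the length by -0.66 (adjusted p = 0.188). By construction that alternative leaves out the narrowest peaks of the longer lists.

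The widest region lost at Ednra was the one over the gene start, chr8:77723721-77724659. It covered 785, 884 and 938 bp in infant, 0, 0 and 384 bp in young adult and 0, 0 and 0 bp in mature adult libraries. The change was -2.76 ± 0.46 from infant to mature adult (limma adjusted p = 0.00207) and -2.15 ± 0.46 from infant to young adult (adjusted p = 0.00914), and both passed under each of the 15 other settings. Only 1 adult library held this region, so it met the filter of 3 libraries through the infant ones. Its p-values are therefore a description, and passing the other settings adds little. Of all 32851 starts in the reference table, 3.33% were covered in all 3 infant libraries and in no mature adult library, and among the 6 genes with a start in that table Ednra was the one with this pattern. Its promoter is shown because its peak was reported in all infant and no mature adult libraries, at chr8:77724403-77724702 on the minus strand, written 5′ to 3′ along the gene.
Ednra: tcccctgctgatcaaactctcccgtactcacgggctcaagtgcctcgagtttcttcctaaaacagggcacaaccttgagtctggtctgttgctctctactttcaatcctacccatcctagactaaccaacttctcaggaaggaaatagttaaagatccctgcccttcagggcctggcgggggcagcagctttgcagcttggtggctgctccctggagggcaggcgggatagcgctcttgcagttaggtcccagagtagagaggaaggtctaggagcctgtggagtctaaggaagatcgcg
None of the 8 patterns occurs in this window, so it has no capitals.

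A second region lost at Ednra lay 78.9 kb upstream, chr8:77803141-77803486, with 345, 291 and 214 bp in the infant libraries and no peak in any of the 6 adult libraries. It met the filter through the infant libraries alone, so no test is given. It was the one region at the 8 genes found in all infant and no adult libraries, a class that held 9.70% of all regions. A region inside the gene, chr8:77695563-77695899, covered 281, 211 and 161 bp, then 336, 189 and 0 bp, then 0, 0 and 0 bp (-1.28 ± 0.39 for mature adult against infant, limma adjusted p = 0.0317) and missed the threshold when any 1 infant or mature adult library was left out (adjusted p from 0.0572 to 0.104). This region too met the filter only with the infant libraries, so its p-values are a description. A region 80.7 kb upstream, chr8:77804987-77805336, held a peak in all 9 libraries, with 332, 322 and 226 bp, then 216, 290 and 335 bp, then 260, 286 and 248 bp. It was chosen after its values were seen.

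Peaks at mural cell and fibroblast markers were fewer in the adult libraries, as at Ednra, while all peaks of the lists were at 74.5% and 68.4% of the infant number. Those at 9 mural cell and fibroblast markers (Pdgfrb, Cspg4, Acta2, Myh11, Tagln, Notch3, Pdgfra, Col1a1 and Col1a2) summed to between 73 and 76 in the infant libraries, between 33 and 35 in the young adult and 32 in each mature adult library, and 6 of the 9 held a peak in all 9 libraries. The 9 endothelial markers summed to 186 to 200, 155 to 179 and 145 to 170 peaks. The 5 epithelial markers summed to 16 to 21, 7 to 13 and 9 to 10 peaks, with Sftpc at 0 throughout. The 5 leukocyte markers summed to 10 to 11, 8 to 13 and 8 to 9, with Cd68 at 0 throughout, and the 3 lymphatic markers to 22 to 24, 18 in each and 17 to 19. The part of other cell types in the Ednra result was not tested. In a bulk library, fewer cells of a type and a smaller share of open chromatin per cell cannot be told apart.

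**Figure D3:**
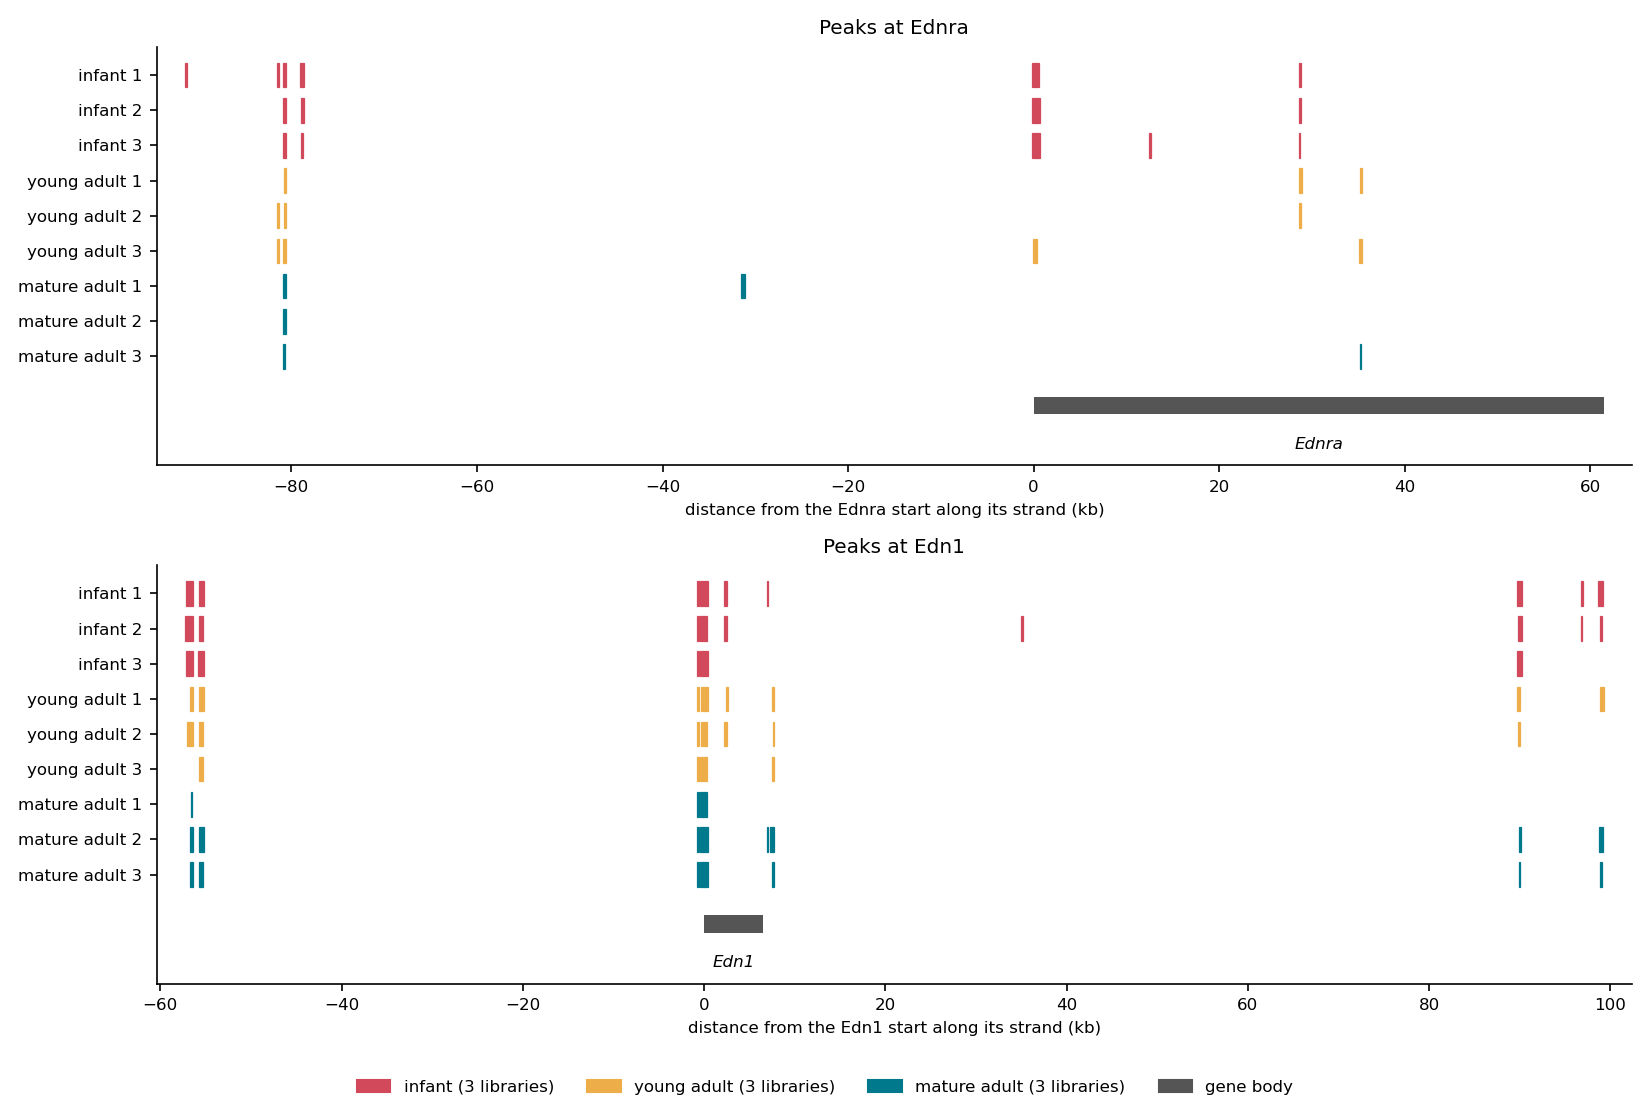
Peaks at Ednra (upper panel) and Edn1 (lower panel) by distance from the gene start along its strand (kb), 1 row per library, coloured by age, each bar spanning 1 peak, with the gene body in grey. At Ednra the bar at 0 is present in 3 of 3 infant, 1 of 3 young adult and 0 of 3 mature adult libraries, and at Edn1 the bar at 0 is present in all 9.

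Ece1, the membrane protease that cuts big endothelin to endothelin-1, had the most peaks of the 8 genes and lies on chr4:137862237-137965229. Its peak number was 28, 26 and 29 in infant, 32, 27 and 26 in young adult and 25, 28 and 28 in mature adult libraries. The covered length was 16736, 16342 and 14625 bp, then 16483, 14368 and 12904 bp, then 12510, 15191 and 15408 bp, and the ages overlapped in both. The log2 change in length from infant to mature adult was -0.15 as listed (limma adjusted p = 0.287) and 0.47 after scaling (adjusted p = 0.000792). The reference table gives Ece1 4 starts, the later ones 51.3 and 58.6 kb into the gene, and all 4 lay under a peak in all 9 libraries.

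The peak over the first start was 822, 803 and 805 bp wide in infant, 767, 762 and 760 bp in young adult and 687, 760 and 757 bp in mature adult libraries. Every infant width lay above every adult width (means 810 ± 10.4, 763 ± 3.61 and 735 ± 41.3 bp, SD, n = 3 each; exact permutation test, p = 0.00714, adjusted p = 0.0214). Divided by the median width of its library the difference did not pass (adjusted p = 0.546), nor without infant 1, mature adult 1 or any 1 young adult library (adjusted p from 0.0536 to 0.0643).

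Single regions inside Ece1 moved both ways. The region 4.17 kb after the start, chr4:137866087-137866721, covered 372, 410 and 416 bp in infant, 317, 362 and 381 bp in young adult and 573, 579 and 576 bp in mature adult libraries. The mature adult values stood above all others (0.40 ± 0.07 against infant, limma adjusted p = 0.00341; 0.53 ± 0.07 against young adult, adjusted p = 0.0125, and 0.0512 with the replicate number as a block). The region 9.39 kb after the start, chr4:137871422-137871829, widened earlier, from 239, 220 and 249 bp to 407, 407 and 367 bp in the young adult and 382, 369 and 364 bp in the mature adult libraries (0.49 ± 0.09 for young adult against infant, adjusted p = 0.00319). The region 13.0 kb after the start, chr4:137874459-137876009, went the other way, from 972, 1286 and 665 bp to 410, 432 and 155 bp and then 422, 469 and 431 bp (-1.24 ± 0.29 for young adult against infant, adjusted p = 0.0127).

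Other regions were lost farther into the gene. Those named next, and the gain after them, met the filter of 3 libraries only with the age of the higher value. Their p-values are therefore given as a description. The region 63.0 kb after the start, chr4:137924953-137925448, covered 492, 424 and 320 bp in the infant libraries, no bp in the young adult and 216, 0 and 0 bp in the mature adult libraries (-1.89 ± 0.34 for young adult against infant, limma adjusted p = 0.00347; -1.46 ± 0.34 for mature adult, adjusted p = 0.0102). The region 90.6 kb after the start, chr4:137952540-137953171, covered 252, 209 and 610 bp, then 205, 150 and 0 bp, then 0, 0 and 0 bp (-1.67 ± 0.38, adjusted p = 0.00956). A gain stood 1.27 kb past the end of the gene, chr4:137966155-137966841, with no peak in infant, 586, 236 and 0 bp in young adult and 517, 375 and 340 bp in mature adult libraries (1.89 ± 0.51, adjusted p = 0.0197), and it missed the threshold without any 1 infant library or mature adult 1 (adjusted p from 0.0573 to 0.0622).

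**Figure D4:**
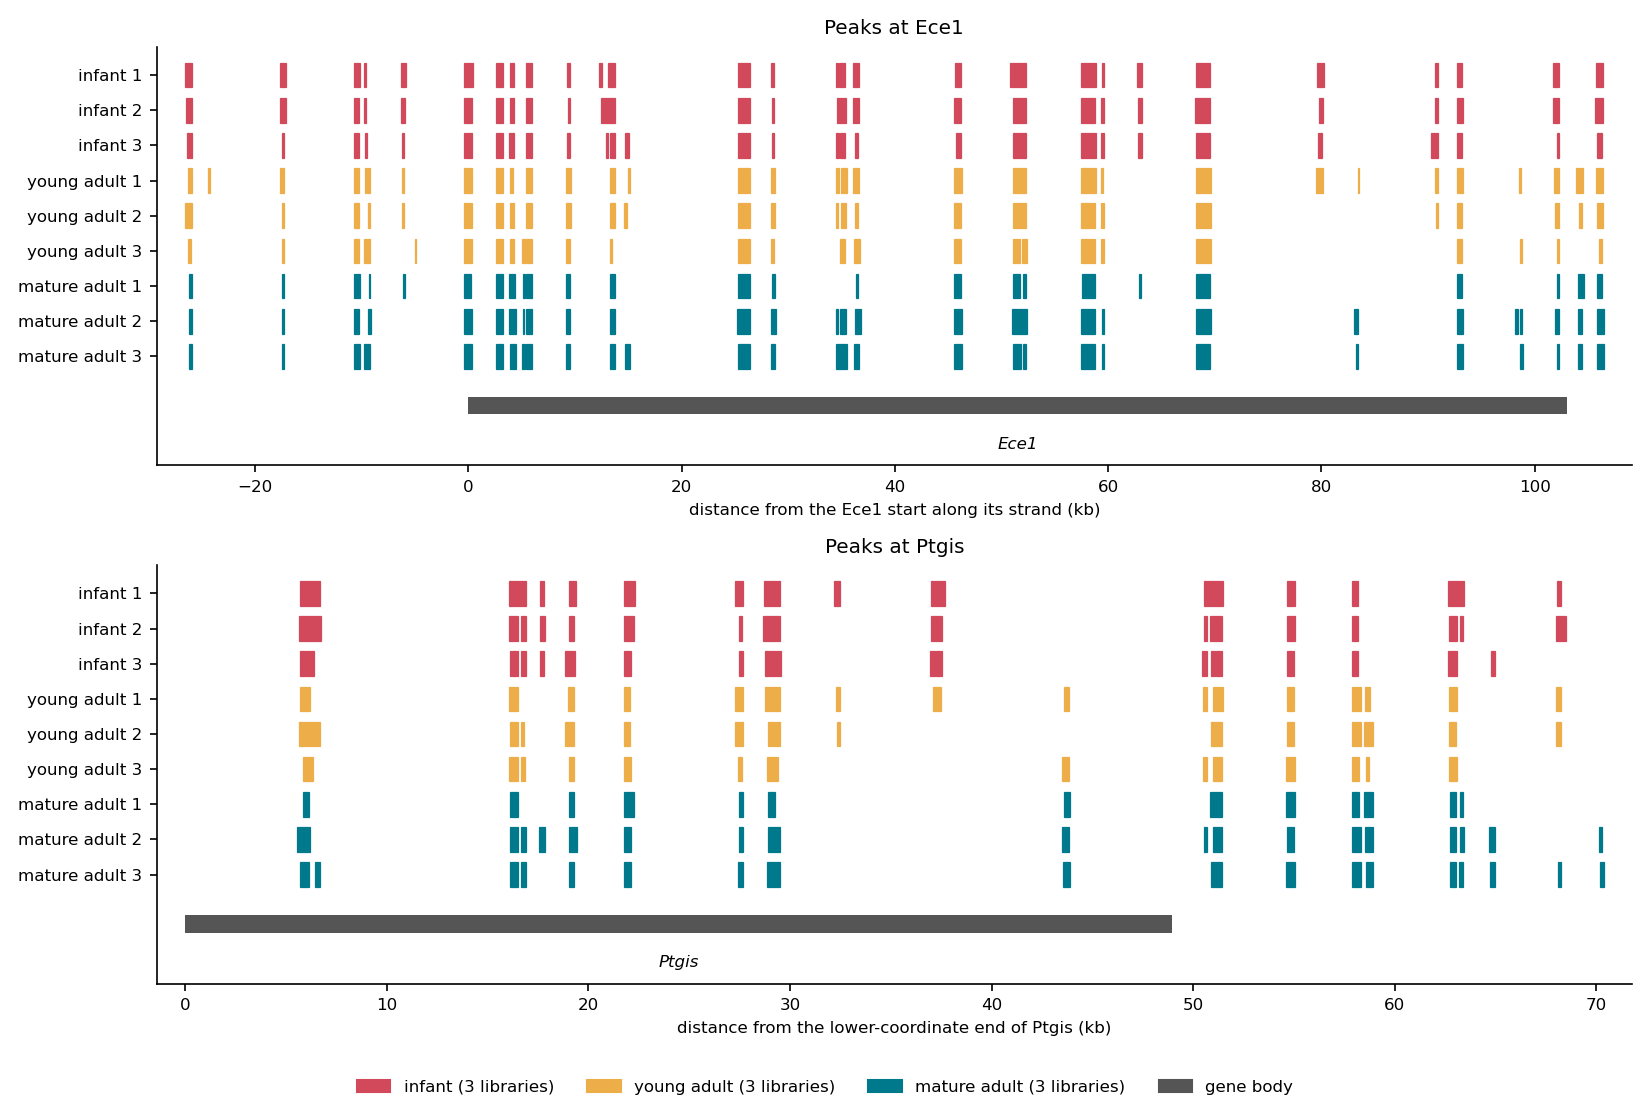
Peaks at Ece1 by distance from its first start (upper panel, kb) and at Ptgis by distance from its lower-coordinate end (lower panel, kb), 1 row per library, coloured by age, with the gene bodies in grey. Most columns of bars run through all 9 libraries (20 of 34 regions at Ece1, 10 of 18 at Ptgis), and a few are present at 1 end of the age range.

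Ace, which makes angiotensin II, kept its peaks and lies on chr11:105967948-105989964. It held 9, 9 and 10 peaks in infant, 10, 11 and 10 in young adult and 9, 10 and 10 in mature adult libraries. The covered length was 6643, 6462 and 6574 bp, then 6305, 6505 and 5727 bp, then 5401, 6015 and 6083 bp, and every mature adult value lay below every infant value. The log2 change in length was -0.17 as listed (limma adjusted p = 0.0837) and 0.45 after scaling (adjusted p = 0.000417). Of its 10 regions, 8 held a peak in all 9 libraries.

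The reference table gives Ace a first start and a second one 7.24 kb into the gene. Textbook knowledge has a long somatic form of the enzyme and a short form made in male germ cells from an internal promoter. The first start lay under a peak in all 9 libraries, 1131, 1088 and 1060 bp wide in the infant, 1041, 1078 and 1030 bp in the young adult and 1037, 1053 and 1048 bp in the mature adult libraries (exact permutation test, p = 0.0821, adjusted p = 0.155). The second start lay under a peak only in young adult 2, 198 bp wide. Of all 32851 starts, 54.5% lay under no peak in any library and 1.84% in exactly 1. Both promoters are printed to set the start that was always covered beside the one that was almost never, at chr11:105967698-105967997 and chr11:105974939-105975238 on the plus strand.
Ace, first start: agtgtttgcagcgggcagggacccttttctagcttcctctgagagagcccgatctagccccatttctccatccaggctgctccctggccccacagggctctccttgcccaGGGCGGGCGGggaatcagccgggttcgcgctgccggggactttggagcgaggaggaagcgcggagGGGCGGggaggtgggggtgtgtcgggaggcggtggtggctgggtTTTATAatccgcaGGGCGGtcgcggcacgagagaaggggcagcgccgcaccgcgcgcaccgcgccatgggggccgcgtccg
Ace, second start: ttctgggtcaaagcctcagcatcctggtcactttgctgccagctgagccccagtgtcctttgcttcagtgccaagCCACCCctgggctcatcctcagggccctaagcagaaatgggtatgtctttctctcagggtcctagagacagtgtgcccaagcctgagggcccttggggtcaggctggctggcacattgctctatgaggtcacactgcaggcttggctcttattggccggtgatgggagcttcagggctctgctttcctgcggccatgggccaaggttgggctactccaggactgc
The first window holds the SP pattern 4 times, of which 2 overlap, and the TATA pattern, on the minus strand, 31 bases before the start. The second window holds the KLF pattern 175 bases before the start and no other of the 8. The share of G and C is 69.7% in the first and 59.0% in the second.

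At the far end of Ace the peak of the infant libraries was split in the adult ones. Each of the 3 infant libraries had 1 peak there, over the gene's end, and each of the 6 adult libraries had 2, with nearly the same outer bounds and a gap of 316 to 340 bp that held the gene's end. In young adult 1, for example, the gap ran from position 105989838 to 105990178. The region, chr11:105989466-105990603, thus covered 1124, 1121 and 1121 bp in infant, 787, 779 and 810 bp in young adult and 792, 797 and 801 bp in mature adult libraries. The infant values stood apart from both adult ages, which lay together (-0.43 ± 0.03 for each adult age against infant, limma adjusted p = 8.57e-06 for mature and 7.95e-06 for young adult). This change passed under each of the 15 other settings. A region 10.1 kb upstream, chr11:105957571-105958113, narrowed from 542, 450 and 526 bp to 288, 288 and 357 bp and then 354, 268 and 353 bp (-0.47 ± 0.12 for mature adult against infant, adjusted p = 0.0145), and did not pass after centring (adjusted p = 0.229) or without infant 1 (adjusted p = 0.0544).

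Ptgis, which makes prostacyclin, lies on chr2:167203194-167252150. It held 14, 16 and 15 peaks in infant, 16, 14 and 14 in young adult and 13, 18 and 18 in mature adult libraries, and the ages overlapped. Its peaks covered 7817, 7022 and 6138 bp, then 5955, 5911 and 4665 bp, then 4627, 6336 and 6080 bp, with overlap of infant and mature adult. The log2 change in length was -0.30 as listed (limma adjusted p = 0.122) and 0.32 after scaling (adjusted p = 0.0149). No peak covered either end of this gene in any library.

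At Ptgis 2 regions were higher and 2 lower in mature adult than in infant libraries. The region chr2:167240142-167240862, 11.6 kb inside the gene from its upper end, covered 661, 585 and 592 bp in infant, 397, 0 and 0 bp in young adult and 0, 0 and 0 bp in mature adult libraries (-2.34 ± 0.47 for mature adult against infant, limma adjusted p = 0.00513). The region chr2:167246688-167247091, 5.26 kb inside that end, had no peak in infant, 243, 0 and 323 bp in young adult and 328, 333 and 371 bp in mature adult libraries (1.72 ± 0.39, adjusted p = 0.00928). The region chr2:167261654-167262130, 9.74 kb outside the upper end, had no peak in infant, 271, 453 and 150 bp in young adult and 429, 433 and 356 bp in mature adult libraries (1.89 ± 0.24, adjusted p = 0.000472). A region 2.00 kb outside the upper end, chr2:167253636-167254665, went in covered length from 856 ± 69.6 bp to 642 ± 64.7 and 604 ± 37.6 bp (SD, n = 3 each; log2 change -0.42 ± 0.08, limma adjusted p = 0.00410), near the loss of the median region, and did not pass after centring (adjusted p = 0.156). The first 3 changes between mature adult and infant passed under each of the 15 other settings. However, the regions 11.6 and 5.26 kb inside the gene met the filter of 3 libraries only with the age of the higher value. The gain outside the gene, with no infant peak, met it through adult libraries alone. For all 3 the p-values are a description, and passing says little. The region 9.74 kb outside lies beside one found in all 9 libraries and joins it when peaks up to 200 bp apart are merged.

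Cav1, the caveolin that forms caveolae in endothelium, gained regions inside the gene and lost others past its end. It lies on chr6:17306335-17341328. It held 12, 13 and 13 peaks in infant, 12, 15 and 12 in young adult and 9, 15 and 14 in mature adult libraries. Covered base pairs were 6522, 6440 and 6892 bp, then 6307, 6966 and 5430 bp, then 5278, 6559 and 6463 bp, and the ages overlapped in both. The log2 change in length was -0.12 as listed (limma adjusted p = 0.375) and 0.49 after scaling (adjusted p = 0.00142).

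Of the 8 regions found in all mature adult and no infant libraries, 3 were at Cav1. The region chr6:17323994-17324663, 18.0 kb after the start and inside the gene, had no peak in infant, 419, 406 and 543 bp in young adult and 366, 357 and 266 bp in mature adult libraries (2.01 ± 0.15 for young adult against infant, limma adjusted p = 1.68e-05; 1.67 ± 0.15 for mature adult, adjusted p = 4.98e-05). The region chr6:17337172-17337754, 31.1 kb after the start and inside the gene, had no peak in infant, 268, 391 and 356 bp in young adult and 334, 437 and 545 bp in mature adult libraries (1.69 ± 0.17, adjusted p = 0.000126; 1.96 ± 0.17, adjusted p = 4.85e-05). Both were thus present in 6 of 6 adult and 0 of 3 infant libraries, a class that held 4 of the 129 regions (3.10%) and 0.686% of all regions. A later gain, chr6:17343000-17343324, 1.83 kb past the end of the gene, was found in the mature adult libraries alone, with 180, 324 and 175 bp. It met the filter through those libraries alone, so no test is given. The first 2 gains passed under each of the 15 other settings. No infant library held either, so both met the filter of 3 libraries through adult libraries alone. Their p-values are therefore a description too, and passing says little.

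Farther past the end of Cav1 peaks were narrower or missing in the mature adult libraries. The region chr6:17353385-17354927, 12.8 kb past the end, covered 1542, 1542 and 1542 bp in infant, 1377, 1181 and 1021 bp in young adult and 985, 943 and 1213 bp in mature adult libraries (-0.51 ± 0.11 for mature adult against infant, limma adjusted p = 0.00782). The region chr6:17362822-17363074, 21.6 kb past the end, covered 166, 172 and 252 bp, then 0, 150 and 0 bp, then 0, 0 and 0 bp (-1.20 ± 0.26, adjusted p = 0.00799). This last region met the filter of 3 libraries only with the infant ones, so its p-value is a description.

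Both starts of Cav1 in the reference table, 1.305 kb apart, lay under a peak in all 9 libraries. The peak over the first was 964, 950 and 994 bp wide in infant, 889, 723 and 807 bp in young adult and 897, 899 and 931 bp in mature adult libraries, with the infant widths above all adult widths (969 ± 22.5, 806 ± 83.0 and 909 ± 19.1 bp, SD, n = 3 each; exact permutation test, p = 0.00357, the smallest that 280 splits can give, adjusted p = 0.0214). Divided by the median width of the library the difference did not pass (adjusted p = 0.354), nor without any 1 infant or mature adult library (adjusted p from 0.118 to 0.129). The promoter of the first start, chr6:17306085-17306384 on the plus strand, is printed with that of Cav2 because their peaks were present throughout while the regions around them changed.
Cav1: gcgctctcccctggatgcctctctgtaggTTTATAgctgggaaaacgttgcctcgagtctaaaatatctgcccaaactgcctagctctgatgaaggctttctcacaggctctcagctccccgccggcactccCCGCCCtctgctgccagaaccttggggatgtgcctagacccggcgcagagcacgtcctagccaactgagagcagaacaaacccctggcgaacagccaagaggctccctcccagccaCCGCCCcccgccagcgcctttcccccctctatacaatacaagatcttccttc
Cav2: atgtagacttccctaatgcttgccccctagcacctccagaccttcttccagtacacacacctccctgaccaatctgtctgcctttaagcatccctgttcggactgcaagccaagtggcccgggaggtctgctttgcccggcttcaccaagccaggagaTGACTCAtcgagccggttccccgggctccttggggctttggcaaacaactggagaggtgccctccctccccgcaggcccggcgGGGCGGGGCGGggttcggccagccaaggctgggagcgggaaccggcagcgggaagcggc
The Cav1 window holds the SP pattern 2 times, on the minus strand, and the TATA pattern, on the minus strand, 221 bases before the start. The Cav2 window, chr6:17280935-17281234 on the plus strand, holds the AP-1 pattern 92 bases before the start and 2 overlapping SP patterns.

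Cav2, the partner of Cav1, is its neighbour on the same strand at chr6:17281185-17289130. It held 15, 15 and 15 peaks in infant, 15, 15 and 16 in young adult and 15, 16 and 14 in mature adult libraries. The covered length was 8857, 8406 and 7966 bp, then 7414, 8146 and 7856 bp, then 7509, 8089 and 7760 bp, with overlap of infant and adult values. The log2 change in length was -0.11 as listed (limma adjusted p = 0.194) and 0.51 after scaling (adjusted p = 0.000571). The peak over its start was 1738, 1762 and 1733 bp wide in infant, 1278, 1747 and 1257 bp in young adult and 1348, 1277 and 1253 bp in mature adult libraries. The infant and mature adult widths did not overlap, and the test over the 3 ages did not pass (exact permutation test, p = 0.104, adjusted p = 0.155). In 5 of the 6 adult libraries, all but young adult 2, the peak was split: a second peak followed after a gap of 143 to 229 bp and reached the outer bound of the infant peaks.

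Of the 5 regions at Cav2 that passed between mature adult and infant libraries, 4 lay upstream of the gene and the other, over its start, was lower by a small amount (-0.15 ± 0.05, limma adjusted p = 0.0383). The region 29.0 kb upstream, chr6:17251995-17252363, had no peak in infant, 339, 330 and 331 bp in young adult and 233, 342 and 335 bp in mature adult libraries (1.69 ± 0.14 for young adult against infant, limma adjusted p = 2.93e-05; 1.59 ± 0.14 for mature adult, adjusted p = 4.13e-05). This gain met the filter of 3 libraries through adult libraries alone, so its p-values are a description. The region 10.3 kb upstream, chr6:17270688-17271009, covered 299, 314 and 310 bp, then 0, 218 and 306 bp, then 0, 0 and 0 bp (-1.61 ± 0.37 for mature adult against infant, adjusted p = 0.0101). It met the filter of 3 libraries only with the infant ones, so its p-value is a description. The region 4.29 kb upstream, chr6:17276694-17277100, was lost and found again: 394, 395 and 406 bp in the infant libraries, no peak in the young adult and 152, 272 and 221 bp in the mature adult libraries. Young adult lay below infant (-1.87 ± 0.15, adjusted p = 2.42e-05) and mature adult above young adult (1.27 ± 0.15, adjusted p = 0.00493). Mature adult also lay below infant (-0.60 ± 0.15, adjusted p = 0.0136), but not after centring (adjusted p = 0.0962).

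**Figure D5:**
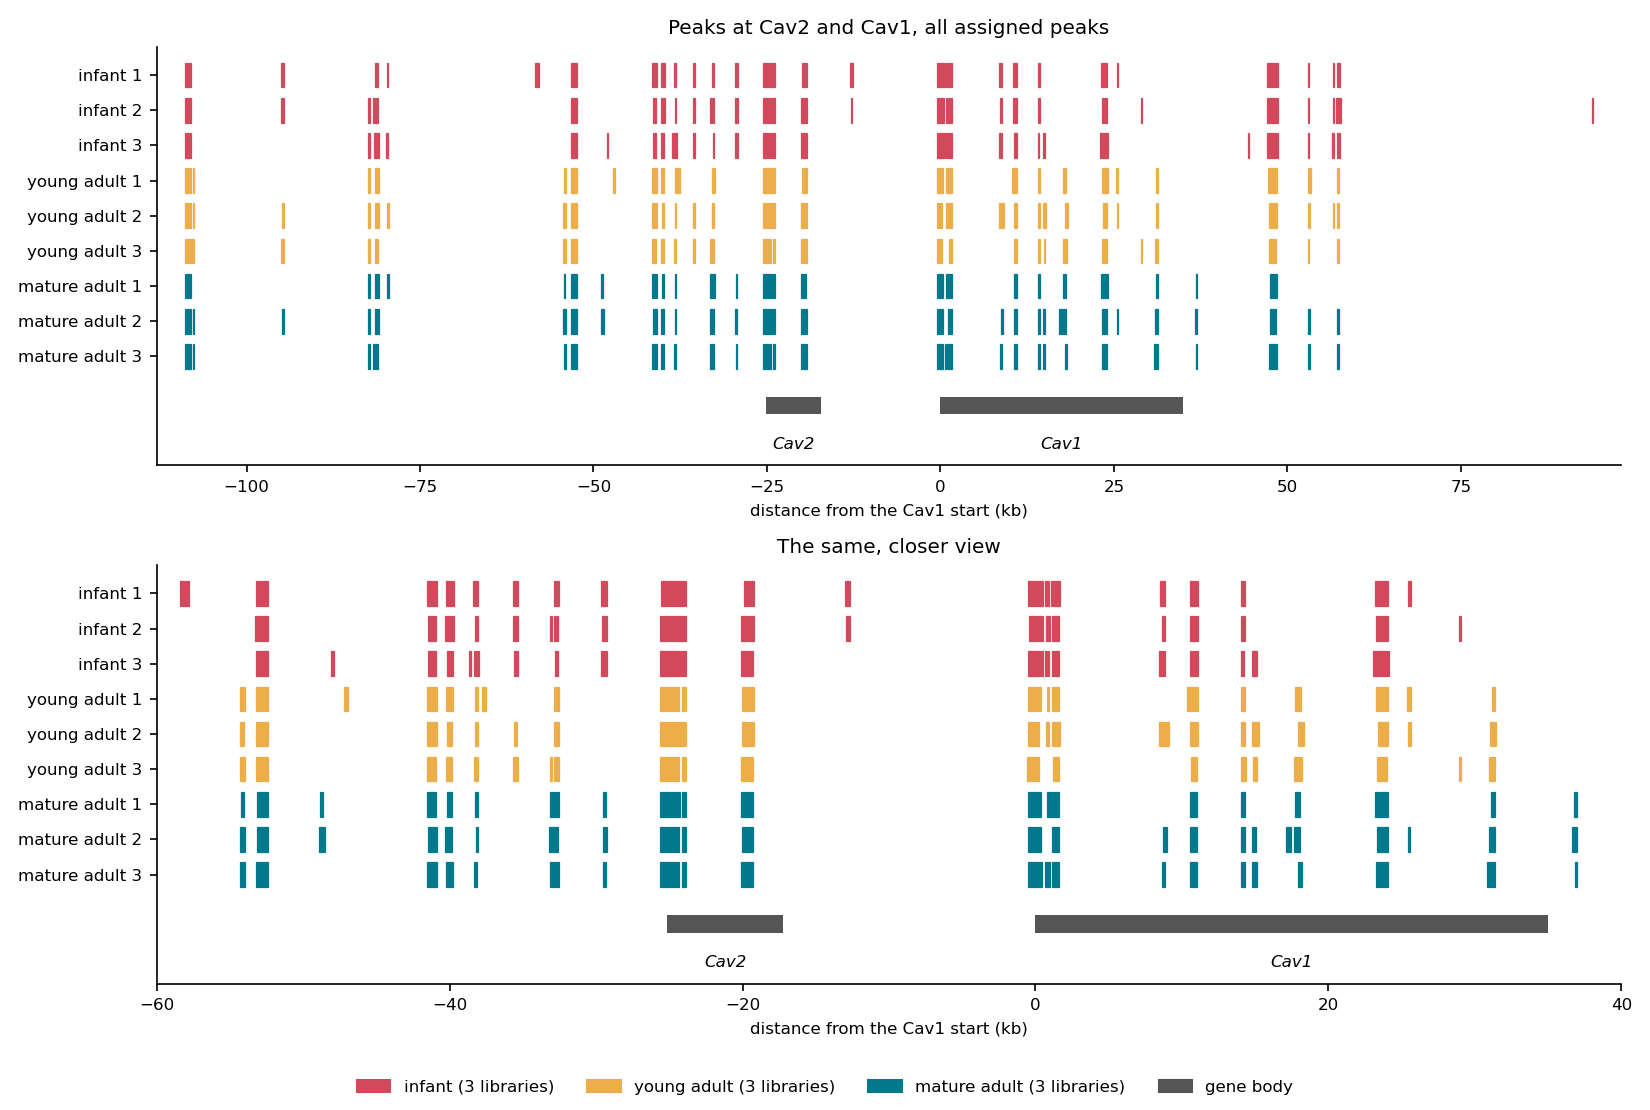
Peaks given to Cav2 and Cav1 by distance from the Cav1 start (kb), whole range above and a closer view below, 1 row per library, coloured by age, with the gene bodies in grey. The bars at 18.0 and 31.1 kb inside Cav1 and at 29.0 kb before the Cav2 start are present in all 6 adult libraries and no infant library.

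Other genes of the same pathways, 67 in 6 lists, were read for the same measure, and 60 could be tested. In peak number, mature adult against infant, 8 were called lower and none higher on both scales (limma), with 2 higher at an unadjusted p under 0.05 on both scales. All genes were called lower at 13.8% and higher at 1.44%, as given above. By list, those lower were 0 of 15 tested for nitric oxide and cGMP, 0 of 3 for endothelin, 2 of 8 for angiotensin and kinin, 3 of 15 for prostanoids, 2 of 9 for caveolae and 1 of 10 for adrenomedullin and natriuretic peptides. These counts include Agt, Ptgs2 and Ptger2, which reached the filter of 1 peak on average only through their infant peaks. In young adult against infant 1 was higher and 3 lower of the 60, where 1.13% and 9.26% of all genes were. Agt was again among those lower. The one higher was Nostrin, whose product binds endothelial nitric oxide synthase and alters its trafficking, with 8, 6 and 7 peaks in infant, 10, 9 and 10 in young adult and 8, 10 and 9 in mature adult libraries. For young adult against infant the adjusted p from limma was 0.000735 on scaled values and 0.0453 as listed. In mature against young adult none was called, with 2 higher and 5 lower at an unadjusted p under 0.05 on both scales.

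Among the genes called lower, Agt, the angiotensin precursor, held 3, 3 and 3 peaks in the infant libraries and none in the 6 adult libraries. Agt, and Ptgs2 and Ptger2 below, reached the filter of 1 peak on average only through their infant peaks, so they are given without a test. Enpep, the aminopeptidase that trims angiotensin II, held 7, 8 and 6 peaks, then 1, 1 and 2, then 3, 2 and 1 (limma adjusted p = 0.0307 after scaling). Cav3, the caveolin of muscle, held 6, 6 and 6 peaks, then 2, 1 and 2, then 0, 1 and 1 (adjusted p = 0.00631). Cavin4, a caveolar coat protein also known from muscle, held 10, 6 and 8 peaks, then 3, 4 and 3, then 4, 3 and 3 (adjusted p = 0.0378). These 4 genes lay lower in every adult than in every infant library. The mural and fibroblast, epithelial, endothelial and lymphatic marker sums given for Ednra were also lower in the adult libraries. Leukocyte sums overlapped between infant and young adult libraries. The part of other cell types was not tested.

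Among prostanoid genes, Ptgs2, the inducible cyclooxygenase, held 3, 2 and 5 peaks, then 0, 0 and 1, then 1, 0 and 0. Hpgds, a prostaglandin D synthase of immune cells, held 4, 3 and 3 peaks, then 1, 2 and 3, then 1, 0 and 0 (adjusted p = 0.0157), and Ptger2, a prostaglandin E receptor, held 4, 1 and 2, then 0, 1 and 2, then 0, 0 and 0. Npr1, the natriuretic peptide receptor, held 5, 5 and 5 peaks, then 4, 4 and 4, then 3, 3 and 3 (adjusted p = 0.0496). The second endothelin receptor, Ednrb, known in endothelium, was not called and held 18, 18 and 17 peaks, then 16, 16 and 16, then 16, 18 and 18. Ednrb was chosen for comparison with Ednra after its values were seen.

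As a description, the gene with the covered length most like each of the 8 over the 9 libraries (Pearson correlation of scaled log2 covered length) was Fbxo15 for Nos3 (r = 0.994), Ehmt2 for Edn1 (r = 0.959), Yap1 for Ece1 (r = 0.985), Rnf180 for Ednra (r = 0.980), Tor1aip1 for Ace (r = 0.994), Efemp2 for Ptgis (r = 0.972), Fbxw9 for Cav1 (r = 0.995) and Wdr47 for Cav2 (r = 0.995). Each is the highest among the 14448 genes tested, over 9 points that share libraries and their totals. No function is read from these values.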

How the data were processed

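ATAC-seq peak lists of sorted mouse lung endothelial cells were used, 1 per library, 9 in all. Each deposited list holds, per the file headers, a chromosome, a start and an end and no height, score or read count. Per the submitters' processing notes, cutadapt, Bowtie2 and Picard were used with build mm10, and no versions are named there. Not given in the sources used here are the caller of the peaks, the threshold applied and whether reads were shifted for the transposase. Depth is unknown, and deeper libraries can yield more peaks. Whether starts count from 0 or 1 is not stated, so positions may be off by 1 bp.

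Between 31.0% and 38.9% of the intervals in a list were repeated, up to 14 times, and each was counted once. Genes and starts came from RefSeq tables of GRCm38.p6, in which Nos3 and Ptgis have no strand, so distances for them are from a gene end. Distances of regions run from their centres. limma 3.58.1 in R 4.3.3, with a mean-variance trend, was fitted over all 9 libraries for the 14448 genes that averaged at least 1 peak, on log2(number + 0.5) and log2(covered bp + 150), and for 83813 regions on log2(covered bp + 150). P-values were adjusted by Benjamini-Hochberg over all genes or regions. Widths of the peaks over gene starts, and for Nos3 over its lower end, were tested by two-sided exact permutation. Python 3.11.15 with pandas 2.3.3, numpy 2.4.6 and scipy 1.17.1 did the rest.

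On simulated data for mature adult against infant libraries, the gene fit of 14448 genes recovered 58% (number) and 75% (length) of genes changed 2-fold and 83% and 87% of those changed 4-fold. The region fit of 83813 regions recovered 38% and 69%. For genes, the share recovered by the call on both scales was not tested. Regions named were those at a gene start, those in all libraries of 1 age and none of another, and those with an adjusted p under 0.05, at most 4 per gene and kind, and pathway genes named were those called on both scales. Of these, the ones that carry each gene's account are printed, and exceptions are marked in the text. The 8 genes, the pathway and marker lists, the settings and the rule were chosen with earlier results of these data known.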

Additional observations from a re-analysis of the deposited data

How the results depend on the processing

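The lists limit every result: without heights or read depth, a missing peak can be a weak one, and the infant lists are longest. Without scaling, the log2 changes from infant to mature adult turned below 0 in number for Cav1 (-0.031), Cav2 (-0.0020), Ece1 (-0.035), Edn1 (-0.38) and Nos3 (-0.19), and in length for Ace (-0.17), Cav1 (-0.12), Cav2 (-0.11), Ece1 (-0.15), Nos3 (-0.17) and Ptgis (-0.30). With an equal number of the widest peaks, 2 of the 8 genes were called higher in number in young adult (Ace and Cav2) and 4 in mature adult libraries (Cav1, Cav2, Ece1 and Ptgis) against infant, where 845 and 1255 of all 14448 genes were. In that setting 0 were called lower, where 652 and 1177 of all genes were in number and 1366 and 2322 in length. The Ednra change there was 1.02 (young adult) and 0.25 (mature adult) in number and 0.036 (young adult) in length. Edn1 changed sign often after scaling: in number to -0.21 with rows as deposited, -0.12 without infant 3, -0.11 without mature adult 2 and -0.03 without mature adult 3, and in length to 0.40 within 10 kb of the gene (adjusted p = 0.0447), 0.064 without mature adult 1 and 0.064 without young adult 3 and mature adult 1 together. Ptgis length was -0.064 with rows as deposited. Log2 ratios of the width of the peak over the start, mature adult over infant, turned to 0.0016 (Edn1) and 0.011 (Ace) when divided by the library median, and that of the peak over the lower end of Nos3 to -0.031 without mature adult 2. With 1 library left out at a time, the scaled Edn1 change ran from -0.12 to 0.50 in number and from -0.52 to 0.064 in length, and the width ratio at the lower end of Nos3 from -0.031 to 0.30. The cause of these shifts was not tested.

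Leaving out 1 library at a time, the genes called lower in mature adult against infant numbered 0 to 1 in number (0 without infant 1 or infant 3), and those lower in length in young adult against infant 0 to 1 (1, Ednra, without young adult 3). Of all 14448 genes, 1493 and 1718 were called lower in number without infant 1 and infant 3, and 1662 in length without young adult 3. Ednra was also called lower in length in young adult against infant with no scaling (1 gene) and without young adult 3 and mature adult 1 together (1), and under the latter in mature against young adult too (1). Regions lower ranged from 7 to 14 in young adult against infant (7 without infant 1, 8 without infant 2 or young adult 3), from 11 to 21 in mature adult against infant (11 without infant 1), and from 0 to 1 in mature against young adult (1 without young adult 1 or 3, and 1 without both libraries together). Over all 83813 regions those lower also varied. In young adult against infant they went from 23022 to 18216 without infant 1, 19187 without infant 2 and 21156 without young adult 3. In mature adult against infant they went from 32484 to 25178 without infant 1. In mature against young adult they went from 1075 to 1197 and 3015 without young adult 1 and 3, and 3127 without both libraries together. Centring gave 15 higher and 8 lower in young adult and 28 and 12 in mature adult libraries against infant. Of all 83813 regions, 5850 and 19023 were in young adult and 10674 and 25190 in mature adult libraries. Of 46 named region results that passed, 30 passed under every other setting run and 16 were lost under at least 1. Of the 30, 4 come from the 2 regions found at 1 age alone, for which passing says little. The same holds for some others of the 30, such as those at the Ednra start. Their regions met the filter only with the age of the higher value or, with no infant peak, through the adult libraries alone.

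The labels do not say whether libraries with the same number in different ages share more than the number. The correlation of their deviations ran from -0.167 to 0.166, and 5 of 9 libraries correlated best with their own number. With the replicate number as a block, genes called in peak number in mature adult against infant went from 208 higher and 1997 lower to 147 and 1882, and the count among the 8 genes stayed at 0 and 1. In regions at the 8 genes it gave 11 higher and 18 lower in the same comparison, where 2934 and 30811 of all 83813 regions were.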
